A study of Mus musculus with 32 samples.

Results

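The genes described here are 8 of the 23035 genes in the footprint tables: Hmgcs1, Idi1, Fdft1, Sqle and Cyp51, which encode enzymes of cholesterol synthesis, Insig1 and Srebf2, which belong to its control, and Ch25h, which encodes the enzyme that turns cholesterol into an oxysterol. They were chosen by symbol, and each symbol matched 1 Ensembl row in every table. Ribo-Seq, the sequencing of mRNA fragments protected by ribosomes (footprints), was done next to total RNA sequencing of the same lysates. The cells were neural stem cells (NSCs) of the ventricular-subventricular zone (vSVZ), taken from C57BL/6 mice aged 8-12 weeks and expanded ex vivo. The 4 groups were vehicle for 2 h, IFN-β for 2 h, vehicle for 14 h and IFN-β for 14 h, with 4 cultures in each. The addition was made 48 hours after seeding, and every culture, vehicle included, received cycloheximide (CHX) for 5 min before lysis. All groups had the same strain and no genetic change is given for them, and the labels do not say how many animals a culture came from. The study's methods describe replicates as cultures derived from separate mice, so the p-values measure the spread between such cultures.

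Cholesterol is built from acetyl-CoA through mevalonate to squalene and from squalene through lanosterol. The genes of this pathway are switched on by SREBP2, the product of Srebf2, which is cut and moves to the nucleus when membrane sterols are low. INSIG proteins hold the SREBP complex in the endoplasmic reticulum when sterols are high. Oxysterols such as the product of Ch25h bind INSIG and also activate LXR, the receptor that turns on cholesterol export genes, and Ch25h is known as an interferon-inducible gene in macrophages. Type I interferon is known to lower sterol synthesis in macrophages.

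Footprint libraries held 4956144 to 9361609 counts at 2 h and 2956297 to 10505108 at 14 h. All 8 NSC markers had counts in every group, with a summed level of 12300 to 17100 CPM (footprint counts scaled to library size and composition) at 2 h and 9900 to 12600 CPM at 14 h. The treatment was visible in each IFN-β culture: Irf9, a subunit of the interferon-activated factor, lay between 2.99 and 6.40 CPM with vehicle and between 82.1 and 106 CPM with IFN-β at 2 h, and between 1.63 and 3.30 CPM and between 105 and 119 CPM at 14 h. At 2 h the cultures numbered 3 stood apart from the others in both groups. Gfap, a glial filament gene, was 37.9 times the mean of the other vehicle cultures there and 7.84 times the mean of the other IFN-β cultures, and Apoe was 5.49 and 5.03 times. Gfap in the other cultures also differed by treatment, at 0.679 to 4.86 CPM with vehicle and 45.6 to 75.2 CPM with IFN-β. The cultures numbered 3 had the lowest value of every sterol gene in both groups, except Fdft1 with IFN-β, with Sqle at 0.562 and 0.591 of the mean of the others. Counts at 2 h were therefore also taken without them, an alternative chosen after seeing the data.

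By position in build GRCm38 (GENCODE M21), Hmgcs1 (ENSMUSG00000093930) spans chromosome 13 from 119690379 to 119708260 on the plus strand. Idi1 (ENSMUSG00000058258) spans chromosome 13 from 8885501 to 8892451 on the plus strand. Fdft1 (ENSMUSG00000021273) spans chromosome 14 from 63145150 to 63179578 on the minus strand. Sqle (ENSMUSG00000022351) spans chromosome 15 from 59315077 to 59331192 on the plus strand. Cyp51 (ENSMUSG00000001467) spans chromosome 5 from 4081145 to 4104746 on the minus strand. Insig1 (ENSMUSG00000045294) spans chromosome 5 from 28071363 to 28078662 on the plus strand. Srebf2 (ENSMUSG00000022463) spans chromosome 15 from 82147181 to 82205379 on the plus strand. Ch25h (ENSMUSG00000050370) spans chromosome 19 from 34473778 to 34475164 on the minus strand. All are protein-coding, and footprints were counted in the coding sequence.

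Promoter sequence was found for 6 of the 8 genes, as the RefSeq stretch (GRCm38.p6) from 250 bases before to 50 bases after the start. Parts of it are shown because they hold sterol or NF-Y motifs, in genes called lower at 14 h (Hmgcs1, Idi1, Cyp51) and in control genes that were not (Insig1, Srebf2), and, for Ch25h, because that gene rose at 2 h. They run 5′ to 3′ on the gene's strand, with motif matches in capitals. The stretches of Idi1 and Cyp51 lie before the RefSeq start but wholly within annotated exons of these genes, since their annotation begins further upstream, and the other 4 hold no exon base.
Hmgcs1: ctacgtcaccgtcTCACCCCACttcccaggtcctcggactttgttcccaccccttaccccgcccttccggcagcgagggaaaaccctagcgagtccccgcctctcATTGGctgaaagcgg
Idi1: agctgATTGGcgagcccgggcatggtccaa
Cyp51: ctgccgctgtccgccaCCAATctggtcctg
Insig1: gccgccctcctcccATTGGctccggcggcc
Srebf2: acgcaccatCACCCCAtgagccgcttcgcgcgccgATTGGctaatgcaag
Ch25h: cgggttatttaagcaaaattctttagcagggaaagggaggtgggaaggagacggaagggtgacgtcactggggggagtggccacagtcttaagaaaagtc
The Hmgcs1 stretch is chr13:119690201-119690320, plus strand. The Idi1 stretch is chr13:8885556-8885585, plus strand. The Cyp51 stretch is chr5:4104713-4104742, minus strand. The Insig1 stretch is chr5:28071182-28071211, plus strand. The Srebf2 stretch is chr15:82147099-82147148, plus strand. The Ch25h stretch is chr19:34475169-34475268, minus strand. The sterol response element searched was TCACNCCAC, on both strands, and 408 of 32851 RefSeq promoters of this length (1.24%) held it. Among the members it was found in Hmgcs1, at -137 from the start. Of 15 other sterol synthesis genes 12 had a promoter in the set, and 0 of these 12 held it. The shorter core CACNCCA, which lies inside the sterol response element, was in 18.4% of promoters and in those of Hmgcs1, Insig1 and Srebf2. It was in 2 of the 12 promoters of other sterol synthesis genes. The NF-Y motif CCAAT, read as ATTGG on the other strand, was in 37.4% of promoters, in 5 of the 6 members' promoters and in 11 of the 12 promoters found for 15 other sterol synthesis genes. The exception among the members was Ch25h. The interferon-stimulated response element, searched as a pair of GAAA separated by 2 bases of any kind, and the STAT motif TTCNNNGAA, in 3.44% and 8.30% of promoters, were in none of the 6. Each was in 1 of the 12 promoters of other sterol synthesis genes. A match is a description of letters and not a measured site.

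Per kilobase of coding sequence, Hmgcs1 had the most footprints in every group, with 1110 ± 58.3 CPM per kb (SD, n = 4) in the 14 h vehicle cultures. Cyp51 followed with 504 ± 16.6, Insig1 with 452 ± 18.9, Idi1 with 353 ± 30.4 and Sqle with 324 ± 8.42 CPM per kb. Fdft1, at 141 ± 4.48, and Srebf2, at 136 ± 1.02 CPM per kb, came last among the sterol genes. The ranges of Idi1 and Sqle overlapped, as did those of Fdft1 and Srebf2, and the other neighbours in this order did not. Ch25h was near or at 0 in every group but IFN-β at 2 h, where it reached 2.31 ± 0.833 CPM per kb, far below each sterol gene. With IFN-β at 14 h Insig1, at 461 ± 32.4 CPM per kb, stood above Cyp51, at 419 ± 14.7, with overlapping ranges, and Sqle, at 308 ± 7.57, stood above Idi1, at 237 ± 29.5, without overlap. At 2 h the ranges of Cyp51, Insig1, Idi1 and Sqle overlapped from each gene to the next in both groups.

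**Figure D1:**
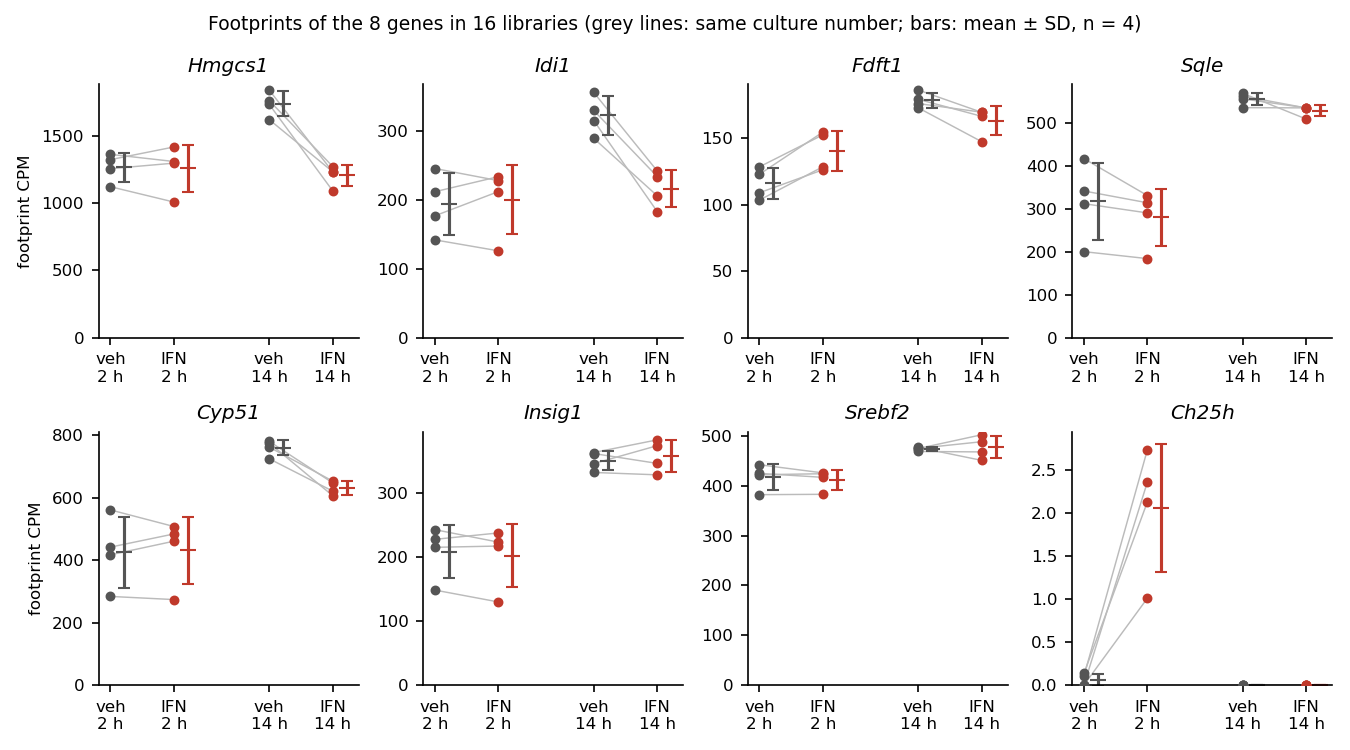
Footprint CPM (y axis, from 0) of the 8 genes in the 16 footprint libraries, as points by group, with grey lines joining cultures of the same number and bars giving mean ± SD over 4 cultures. At 14 h Hmgcs1, Idi1, Fdft1, Sqle and Cyp51 were lower in all 4 IFN-β cultures than in any vehicle culture. Ch25h had 57 counts at 2 h with IFN-β and 2 with vehicle.

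After 14 h of IFN-β, 3 of the 7 sterol genes had fewer footprints than with vehicle: Hmgcs1 and Idi1 by about the same amount, and Cyp51 by less. Insig1 and Srebf2 stayed near their vehicle level in CPM, and Fdft1 and Sqle were slightly lower without passing the unpaired test. None was called higher. For comparison, 26.3% of the 12113 genes tested were called lower and 26.2% higher at this time, so a call in either direction was common. Of the 8 NSC markers 4 were called lower and 0 higher at this time, with a summed level of 10800 to 12600 CPM with vehicle and 9900 to 11600 CPM with IFN-β, and their part in the sterol gene values was not tested. In bulk samples a change in the share of a cell type and a change per cell cannot be told apart. The median log2 fold change was -0.13 over the 7 genes and 0.00 over all genes tested. The groups of Hmgcs1, Idi1, Fdft1, Sqle and Cyp51 did not overlap, and how many of all genes had groups without overlap was not counted. All these levels are relative to the other footprints of a library and do not measure total translation. The study reports a fall in heavy polysomes and in global protein synthesis after long IFN-β exposure, so a steady CPM does not show steady translation per cell.

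Hmgcs1 encodes HMG-CoA synthase, an early enzyme of the mevalonate arm. Its footprints were 1619, 1838, 1760 and 1732 CPM in vehicle cultures 1 to 4 and 1232, 1231, 1271 and 1090 CPM in the IFN-β cultures. The groups did not overlap, and each IFN-β culture was lower than the vehicle culture of its number, by log2 values of -0.39, -0.58, -0.47 and -0.67. The log2 fold change was -0.53 (SE 0.06, 95% interval -0.66 to -0.40, adjusted p = 1.12e-05 in edgeR's quasi-likelihood test), a change of -30.6%.

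Idi1 encodes isopentenyl diphosphate isomerase, which prepares the isoprenoid units that are joined to squalene. It had 290, 356, 330 and 315 CPM with vehicle and 206, 242, 234 and 183 CPM with IFN-β. The highest IFN-β value lay below the lowest vehicle value. Its log2 fold change was -0.58 (SE 0.09, 95% interval -0.77 to -0.39, adjusted p = 0.00013), a change of -33.0%.

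Fdft1 encodes squalene synthase, the enzyme that commits isoprenoids to sterols. It had 179, 186, 176 and 173 CPM with vehicle and 167, 170, 170 and 148 CPM with IFN-β, and the groups did not overlap. The difference was small, -0.13 on the log2 scale (SE 0.06, 95% interval -0.26 to -0.01), and missed the threshold (adjusted p = 0.074). With the culture number as a block it was -0.14 and was called lower (adjusted p = 0.006), in a fit that called 31.0% of genes lower.

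Sqle encodes squalene epoxidase, which carries out the first oxygenation of sterol synthesis. It had 556, 563, 536 and 569 CPM with vehicle and 535, 535, 535 and 509 CPM with IFN-β, and the groups did not overlap. The log2 fold change of -0.07 (SE 0.05, 95% interval -0.18 to 0.03) did not pass the test (adjusted p = 0.212).

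Cyp51 encodes the demethylase that acts on lanosterol after ring closure. It had 725, 780, 762 and 775 CPM with vehicle and 621, 648, 653 and 606 CPM with IFN-β. The groups did not overlap and the log2 fold change was -0.27 (SE 0.05, 95% interval -0.38 to -0.16, adjusted p = 0.000625), a change of -16.9%.

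The control genes showed no called difference at 14 h. Insig1, itself a target of SREBP and the retention partner of its complex, had 346, 364, 333 and 362 CPM with vehicle and 374, 384, 329 and 347 CPM, a log2 fold change of 0.03 (SE 0.06, 95% interval -0.10 to 0.16, adjusted p = 0.732). Srebf2 had 475, 476, 469 and 478 CPM with vehicle and 503, 489, 468 and 451 CPM, a log2 fold change of 0.01 (SE 0.05, 95% interval -0.10 to 0.12, adjusted p = 0.893). Both groups overlapped for both genes, and 2 of 4 numbered pairs pointed each way. The intervals place any difference of either gene within 0.16 on the log2 scale.

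**Figure D2:**
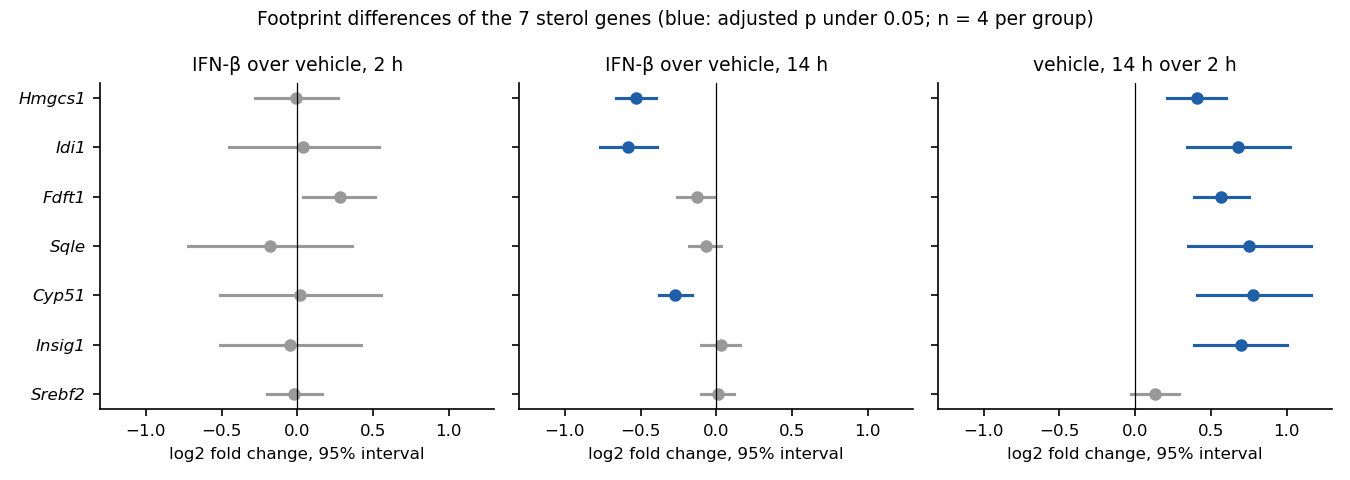
Log2 fold change of footprints (x axis) with its 95% interval for the 7 sterol genes, for IFN-β over vehicle at 2 h and 14 h and for vehicle at 14 h over 2 h, with calls at an adjusted p under 0.05 in blue. The fits drawn did not use the pairing by culture number. At 14 h the genes called lower were Hmgcs1, Idi1 and Cyp51, and in vehicle cultures 6 of the 7 genes were called higher at 14 h.

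After 2 h of IFN-β, none of the 7 sterol genes was called in edgeR's unpaired fit. It called 7.25% of 12104 genes in either direction, 5.25% higher and 2.01% lower. At an unadjusted p under 0.05 there was 1 gene, Fdft1, and DESeq2 called 0. Their median log2 fold change was -0.01, against -0.02 over all genes. Without the cultures numbered 3 edgeR also called 0 of the 7, with 1 at an unadjusted p under 0.05, where 14.1% of genes were called. With the culture number as a block, in a fit that called 29.2% of all genes, Fdft1 was called higher and Sqle lower.

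Hmgcs1 had 1361, 1121, 1322 and 1255 CPM in the vehicle cultures numbered 2, 3, 5 and 6 and 1308, 1007, 1416 and 1296 CPM in those given IFN-β, a log2 fold change of -0.01 (95% interval -0.28 to 0.27). Idi1 had 246, 142, 212 and 177 CPM with vehicle and 228, 126, 234 and 212 CPM in those given IFN-β, a log2 fold change of 0.04 (95% interval -0.45 to 0.54). The cultures of both groups were interleaved for both genes.

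Fdft1 had 129, 104, 123 and 109 CPM with vehicle and 153, 129, 155 and 126 CPM with IFN-β. Each IFN-β culture was above the vehicle culture of its number, although the groups overlapped. The log2 fold change was 0.28 (SE 0.11, 95% interval 0.04 to 0.51, adjusted p = 0.196), and with the culture number as a block it was 0.28 and called higher (adjusted p = 0.000105). Sqle had 417, 201, 342 and 312 CPM with vehicle and 331, 184, 314 and 291 CPM with IFN-β. It was lower in 4 of 4 pairs, with a log2 fold change of -0.18 (95% interval -0.72 to 0.36, adjusted p = 0.82) and, in the block fit, -0.17 and a call lower (adjusted p = 0.00524). The block fit called 29.2% of all genes at 2 h.

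Cyp51 had 561, 284, 442 and 417 CPM with vehicle and 508, 274, 484 and 461 CPM with IFN-β, and Insig1 had 243, 149, 215 and 228 CPM and 224, 130, 217 and 238 CPM. Their log2 fold changes were 0.02 (95% interval -0.51 to 0.55) and -0.05 (95% interval -0.51 to 0.42). Srebf2, with 443, 383, 423 and 425 CPM and 426, 383, 425 and 417 CPM, was the steadiest of the 7 genes between cultures. Its interval of -0.20 to 0.16 was the narrowest of them at 2 h, while that of Cyp51 also held its 14 h value of -0.27. Those of Hmgcs1 and Idi1 ended above their 14 h values of -0.53 and -0.58. This leaves out the error of the 14 h values, and for Idi1 the 2 h and 14 h intervals overlapped.

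The effect of IFN-β differed between the times for 2 members. The difference between the 14 h and the 2 h log2 fold change was -0.51 for Hmgcs1 (SE 0.14, adjusted p = 0.0129) and -0.40 for Fdft1 (SE 0.12, adjusted p = 0.0218), where 15.5% of 12508 genes were called lower and 15.4% higher. Fdft1 lost the call without IFN-β culture 5 at 2 h (-0.35, adjusted p = 0.0507) and without IFN-β culture 4 at 14 h (-0.34, adjusted p = 0.0521). Idi1 had a difference of -0.61 (SE 0.25, adjusted p = 0.078), which was called at -0.65 without the cultures numbered 3 (adjusted p = 0.00202), and also without IFN-β culture 3 alone (-0.77) or vehicle culture 2 at 2 h (-0.74). In the block fit, which called 27.5% of genes lower, Idi1 at -0.62 (adjusted p = 2.61e-07) and Cyp51 at -0.28 (adjusted p = 0.000325) were called as well. The values for Sqle, Insig1 and Srebf2 were 0.12, 0.09 and 0.04, with no call in either fit.

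Vehicle cultures themselves differed in these genes between the times. At 14 h, 6 of the 7 sterol genes were higher than at 2 h, where 12.0% of 12131 genes were called higher. The log2 differences ran from 0.41 for Hmgcs1 (adjusted p = 0.00989) to 0.78 for Cyp51 (adjusted p = 0.00921), with Fdft1 at 0.57, Idi1 at 0.68, Insig1 at 0.70 and Sqle at 0.75. Srebf2 was at 0.13 (adjusted p = 0.186). No label ties the cultures of one time to those of the other, so time and the set of cultures cannot be told apart, and this comparison shares its 14 h vehicle cultures with the comparison of IFN-β at 14 h. At 14 h with IFN-β, Hmgcs1 averaged 1210 CPM and Idi1 216 CPM, close to the 1260 and 194 CPM of vehicle at 2 h, while Cyp51 averaged 632 CPM against 426 CPM. These CPM were scaled separately at each time and so are not on a common scale.

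Ch25h followed another course. Its counts were 22, 5, 17 and 13 in the IFN-β cultures numbered 2, 3, 5 and 6 at 2 h, and 1, 0, 0 and 1 in the vehicle cultures. On the CPM scale that is 2.74, 1.01, 2.37 and 2.13 against 0.105, 0, 0 and 0.136. Every IFN-β culture was above every vehicle culture, and the lowest was culture 3. An exact two-sided permutation test of the CPM gave p = 0.0286 (n = 4 and 4), the smallest that an unpaired comparison of this size allows. It permuted the cultures freely and so did not use their pairing by number.

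The summed counts, 57 and 2, gave a ratio of 34.5 with a 95% counting interval of 9.11 to 291. The ratio ranged from 26.2 to 52.9 when single libraries were left out, and without the cultures numbered 3 of both groups the counts were 52 and 2, with an interval of 7.89 to 254. Ch25h did not reach 10 counts in 4 libraries and so was not among the genes tested. Without that filter edgeR gave a log2 fold change of 4.72 (SE 0.64, adjusted p = 0.00107), and 3.94% of 16406 genes were then called higher.

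At 14 h Ch25h had 0 counts in all 8 footprint libraries. With IFN-β a count of 0 allows up to 0.116 CPM (3 counts over the group), and with vehicle up to 0.0887 CPM. The pooled level with IFN-β at 2 h, in another set of cultures, was 2.17 CPM, 18.7 times the 14 h floor with IFN-β. That ratio leaves out the counting error of the 2 h level, and CPM were scaled separately at each time. Intervals and floors cover counting error only. In total RNA Ch25h had 0 counts in all 16 libraries.

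Ch25h is known from macrophages, so their markers are given beside it. Of 10 microglia or macrophage genes, Aif1, Cx3cr1 and C1qa had 0 counts in all footprint libraries, and Ptprc and Tmem119 had 0 in all 8 at 2 h. The summed level of the list was 16 to 34.6 CPM with vehicle and 21.0 to 40.7 CPM with IFN-β at 2 h, and 38.3 to 42.8 and 42.5 to 46.6 CPM at 14 h, when Ch25h had no counts. Most of it came from Itgam, with 750 counts over the vehicle and 726 over the IFN-β cultures at 2 h. In the same order, Cd68 had 55 and 75 counts, P2ry12 86 and 58, Csf1r 0 and 2 and Adgre1 0 and 1. At 14 h most came from Itgam, with 1098 and 502 counts, and P2ry12, with 251 and 586 counts. These are raw counts over groups of unequal depth. Of the 3 list genes tested at 2 h, 1 was called higher with IFN-β in the block fit, which called 29.2% of all genes. Without the block none was called at 2 h. Of the 3 list genes tested at 14 h, 1 was called higher and 1 lower with IFN-β, with log2 fold changes from -0.75 to 1.62. The part of these markers in the Ch25h counts was not tested. Gpr183, the receptor for oxysterols made downstream of Ch25h, had 0 counts in all 16 footprint libraries.

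The rest of the pathway was lower at 14 h across most steps. Of the 6 other genes of the mevalonate arm, 5 were called lower, with a median log2 fold change of -0.42. Over all genes tested at this time, 26.3% were called lower and 26.2% higher. Acat2, which makes acetoacetyl-CoA, was at -0.77 (adjusted p = 7.26e-06). Mvd, which makes isopentenyl diphosphate, was at -0.45 and Fdps, farnesyl diphosphate synthase, at -0.39. Mvk, mevalonate kinase, was not called (0.07).

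Of 9 other genes after squalene, 8 were called lower, with a median of -0.40. Sc5d, a sterol desaturase, was at -0.61 (adjusted p = 2.08e-06), Hsd17b7 at -0.47, Dhcr7, which acts in the last steps, at -0.46 and Msmo1 at -0.41. Tm7sf2 was not called (-0.15, adjusted p = 0.142), and in the block fit it was (-0.15, adjusted p = 0.0495). Together 13 of these 15 genes were lower at 14 h and 0 higher, where 26.3% of all genes were called lower. With single libraries left out, 12 or 13 of the 15 were lower. At 2 h edgeR called 0 of the 15, with 0 at an unadjusted p under 0.05 and 0 in DESeq2, and their median was 0.01. Without the cultures numbered 3, 2 of the 15 were called at 2 h, close to the share of 14.1% over all genes, Dhcr7 lower (-0.38, adjusted p = 0.00443) and Hsd17b7 higher (0.52, adjusted p = 0.0112). In the block fit 3 were higher and 1 lower, close to the 29.2% of all genes that it called. The difference between times was called lower for 6 of the 15, where 15.5% of all genes were called lower. Among them were Hsd17b7 at -1.01, Acat2 at -0.69, Sc5d at -0.68, Ebp at -0.44 and Pmvk at -0.32. It was called lower for 10 without the cultures numbered 3, where 21.2% of all genes were called lower. In the block fit 12 were called lower and 1 higher, where 27.5% of all genes were called lower. The main count of 6 became 3 to 9 when single libraries were left out: 3 without IFN-β culture 5 at 2 h or IFN-β culture 4 at 14 h, and 9 without IFN-β culture 3 at 2 h. In vehicle cultures 12 of the 15 were higher at 14 h than at 2 h, where 12.0% of all genes were called higher.

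Across the 16 footprint libraries, the genes most like the mean of the 7 sterol genes included Lss (Pearson r = 0.983), Mvd (0.981), Ldha (0.963) and Msmo1 (0.963), out of 10688 genes with a mean of at least 5 CPM. All of these but Ldha, a lactate dehydrogenase gene, belong to sterol synthesis. Among the members, Sqle and Insig1 were the most alike (r = 0.975) and Hmgcs1 and Srebf2 the least (r = 0.495). The genes most like Ch25h were Top1, Noct, Ptpn12, Etv6 and Tm4sf1, with r between 0.958 and 0.963. These correlations are descriptions over libraries that share treatment, time and culture.

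Other genes of sterol control moved the other way at 14 h, when 26.2% of all genes were called higher. Of 5 genes of SREBP processing, 4 were called higher, with a median of 0.34: Insig2 at 0.48 (adjusted p = 0.0048), Srebf1, which encodes SREBP1, at 0.42 (adjusted p = 0.000563), Scap, the sterol sensor that escorts SREBP, at 0.34 (adjusted p = 0.0132) and the protease gene Mbtps1 at 0.28. Srebf1 was lower at 2 h, from 434 to 549 CPM with vehicle to 312 to 395 CPM with IFN-β (log2 fold change -0.50, adjusted p = 0.0192), and the difference between the times was 0.93 (adjusted p = 0.000121). The call at 2 h was lost in turn without IFN-β culture 2 or 5 or vehicle culture 2, 5 or 6, with log2 values of -0.50 to -0.44.

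Among 7 tested genes of sterol uptake and transport, 4 were lower and 2 higher at 14 h. Over all genes 26.3% were called lower and 26.2% higher, so the 2 calls higher were close to that share. Tmem97, which regulates NPC1, was at -0.89 (adjusted p = 1.56e-06), Stard4, a cholesterol carrier, at -0.49 and Soat1, which esterifies cholesterol, at -0.39. Npc1 and Npc2, which release cholesterol from lysosomes, were at 0.15 (adjusted p = 0.0157) and 0.24 (adjusted p = 0.0382). The 2 calls higher fell to 0 without IFN-β culture 3 and to 1 without IFN-β culture 2 or 4 or vehicle culture 1, 2 or 3, while the 4 calls lower stayed 4 in number. The difference between times was called for Tmem97 (-0.74, adjusted p = 0.0393), a call lost without any 1 of 10 libraries, at -0.77 to -0.64.

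Of 6 tested genes of LXR and cholesterol efflux, 5 were higher at 14 h, with a median of 0.71, where 26.2% of all genes were called higher. Abca1, the main exporter, rose from 86.6 to 127 CPM with vehicle to 337 to 464 CPM with IFN-β (log2 fold change 1.99, adjusted p = 2.09e-08). Nr1h2, which encodes an LXR, was at 0.71, Apoe, the carrier of cholesterol outside cells, at 0.70 and Lpcat3, an LXR target of phospholipid remodelling, at 0.37. The summed level of 5 mature astrocyte markers moved with them, from 719 to 894 CPM with vehicle to 1060 to 1360 CPM with IFN-β, with Aldh1l1 higher (0.96, adjusted p = 4.57e-07), Gja1 lower (-0.60, adjusted p = 0.00315) and S100b not called, and its part in the LXR gene values was not tested. In vehicle cultures 3 of the 6 LXR and efflux genes were lower at 14 h than at 2 h and 0 higher, with a median of -1.1. Over all genes 1910 of 12131 were called lower. Abca1 averaged 522 CPM with vehicle at 2 h, 103 CPM with vehicle at 14 h and 408 CPM with IFN-β at 14 h, with CPM scaled separately at each time. Time and the set of cultures cannot be told apart here either. For IFN-β over vehicle at 2 h edgeR called 0 of 5 tested, with 0 at an unadjusted p under 0.05 and 0 in DESeq2. The block fit, which called 29.2% of all genes, called Abca1 higher (0.18, adjusted p = 0.00132) and Apoe (-0.30, adjusted p = 3.4e-06) and Abcg1 (-0.88, adjusted p = 0.00227) lower. Without the cultures numbered 3, where 14.1% of genes were called, Abcg1 was called lower (-1.01, adjusted p = 0.0427). Those cultures were high in Abca1, at 3.39 and 3.17 times the mean of the others. The difference between times was 1.84 for Abca1 (adjusted p = 0.0326, lost without any 1 of 9 libraries, at 1.17 without vehicle culture 3 at 2 h and at 1.63 to 1.86 without the others) and 0.51 for Lpcat3 (adjusted p = 0.00115). Of 3 tested genes of oxysterol metabolism, Hsd3b7, an enzyme of bile acid and oxysterol turnover, was higher at 14 h (0.62, adjusted p = 0.000359), Cyp46a1, which makes the brain's main oxysterol, was lower (-0.89, adjusted p = 0.000631) and Cyp7b1, which breaks down oxysterols, was not called (-0.52, adjusted p = 0.0727) except in the block fit (-0.52, adjusted p = 0.0297).

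**Figure D3:**
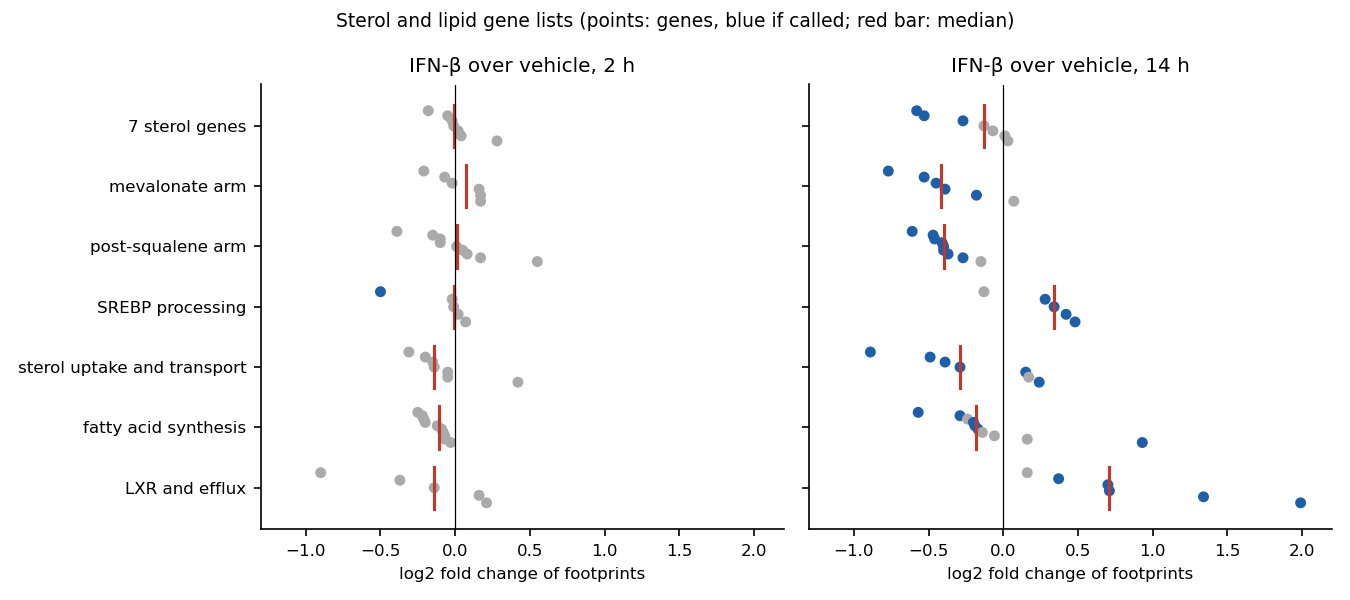
Log2 fold change of footprints, IFN-β over vehicle (x axis), for each tested gene of the sterol and lipid lists at 2 h and 14 h, in blue where the adjusted p was under 0.05, with the median of each list as a red bar. At 14 h the medians of both synthesis arms were -0.42 and -0.40, and those of SREBP processing and of LXR and efflux were 0.34 and 0.71.

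Total RNA gave no called difference for the members. In edgeR 0 of 7 tested at 2 h and 0 of 5 tested at 14 h were called, where 0.799% and 6.28% of all genes were. At an unadjusted p under 0.05 there was 1 at each time, Hmgcs1 at 2 h and Srebf2 at 14 h, and DESeq2 called 0 at both. Hmgcs1 had a log2 fold change of 0.64 at 2 h (SE 0.26, adjusted p = 0.577) and 0.52 at 14 h (SE 0.34, adjusted p = 0.454), above 0 where its footprints at 14 h were below. Srebf2 in total RNA at 14 h had 6.52, 10.5, 10.5 and 7.32 CPM with vehicle and 5.82, 4.59, 5.66 and 4.84 CPM with IFN-β, and the groups did not overlap (log2 fold change -0.65, SE 0.29, adjusted p = 0.231). Counts were few: Hmgcs1 had 20 to 71 per library at 2 h and 6 to 27 at 14 h, against 4979 to 13004 and 3683 to 18210 footprints. Idi1 had 3 to 13 and 0 to 5, and Cyp51 5 to 43 and 1 to 10.

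This held for abundant genes beyond the members. Actb had 151 to 854 total RNA counts at 2 h against 30027 to 69583 footprints, and Vim 21 to 103 against 29146 to 52430. Genes annotated as antisense took 13.6% to 16% of the total RNA counts by group and 0.00144% to 0.00198% of the footprint counts. The libraries came from a directional kit, and the strand setting of the counting is not given in the sources used here. Of the members, 5 overlap an antisense gene in their exons: Hmgcs1 shares 557 bases with Gm48342, Idi1 323 with Gm48574, Fdft1 774 with Ctsb, Cyp51 166 with Akap9 and Ch25h 159 with Gm26902. Whether the total RNA counts come from the members' own mRNA was not tested, so a missing difference in them does not show that their mRNA was unchanged.

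**Figure D4:**
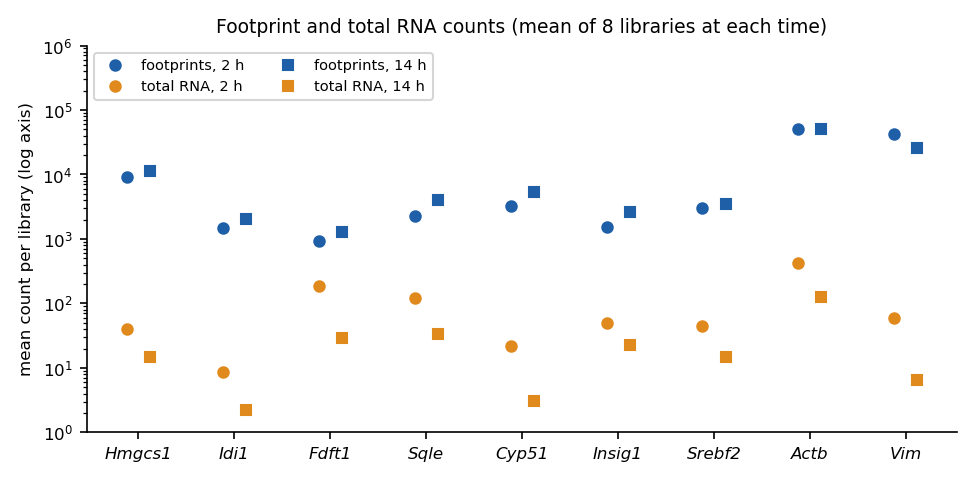
Mean count per library (y axis, log scale) in footprints (blue) and total RNA (orange) at 2 h (circles) and 14 h (squares), over 8 libraries each, for the 7 sterol genes, Actb and Vim. Total RNA counts were far below footprint counts for every gene drawn, with means of 40.2 and 9240 for Hmgcs1 at 2 h.

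Translational efficiency (TE), the footprint change relative to that of total RNA, rests on those counts. At 2 h edgeR called 0 of the 7 tested members at an adjusted p under 0.1, where 0.815% of genes were called, with 0 at an unadjusted p under 0.05 and 0 in DESeq2. At 14 h it called 1, where 8.39% were called. Hmgcs1 had a TE change of -1.09 on the log2 scale (SE 0.33, adjusted p = 0.051). DESeq2's likelihood ratio test also called it (-1.12, adjusted p = 0.00304), as did the replicate block, library totals alone and the fit without the filter. The call was lost with the culture as a block (-1.05, adjusted p = 0.174) and without IFN-β culture 1 or 2 or vehicle culture 2 or 4 (-1.10 to -0.88).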

How the data were processed

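Ribosome footprints and total RNA of NSC cultures were measured with 4 cultures per group. The authors trimmed reads with Trim Galore 0.4.4, mapped them with Bowtie 0.12.7 to the GRCm38 transcriptome of Ensembl, removed duplicated reads and deposited counts per gene, footprints in the coding sequence and total RNA over the gene body. Removing duplicates of short footprints can lower the counts of abundant genes.

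Genes were tested at 10 counts or more in at least 4 libraries, with TMM scaling and the two-sided quasi-likelihood test of edgeR 4.0.16 in R 4.3.3 and Benjamini-Hochberg adjustment over all genes tested. DESeq2 1.42.0, library totals alone, other filters, blocks and leaving out libraries were alternatives. TE was the interaction of library kind and treatment, where the study used a likelihood ratio test in DESeq2. The scripts were tested on simulated data. CPM were scaled within each table.

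Footprint cultures of the same number deviated together from their group means (r = 0.192 to 0.812 over the 8 pairs), so the numbers were taken to pair them. The main fits did not use this pairing, so their errors also hold the spread that the cultures of a pair share. The replicate block fit used it. The members and lists were chosen with earlier results of these data known. All 8 genes are named throughout, and of each list the genes called with a mean of at least 50 counts, up to 4 by size of change, beside fixed genes of sterol control. Other list genes that complete a small count were named after their values were seen. Some list genes are counted but not reported here by name. No column was left out. Promoters came from RefSeq.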

Additional observations from a re-analysis of the deposited data

Results flagged for a closer look

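In the IFN-β group at 14 h, the culture numbered 4 lay apart from the other cultures in Fdft1, at 148 CPM, and in Sqle, at 509 CPM. Chance puts about 1 in 20 groups of 4 past this limit, and 58 groups were looked at.

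The effect of IFN-β on footprints differed between 14 h and 2 h by the interaction test for Hmgcs1 (-0.51) and Fdft1 (-0.40) among the members. It also differed downward for Acat2 (-0.69), Pmvk (-0.32), Hsd17b7 (-1.01), Sc5d (-0.68), Ebp (-0.44) and Tmem97 (-0.74), and upward for Srebf1 (0.93), Acss2 (1.02), Abca1 (1.84) and Lpcat3 (0.51), all as log2 differences. Leaving out single libraries lost the call in at least 1 case for Fdft1, Pmvk, Hsd17b7, Tmem97 and Abca1, and in none for Hmgcs1, Acat2, Sc5d, Ebp, Srebf1, Acss2 and Lpcat3.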

How the results depend on the processing

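The 3 members called lower at 14 h were 3 in every alternative except the block, which gave 4. At 2 h 0 members became 1 without the filter on low counts, which let Ch25h in, and 2 in the replicate block fit, Fdft1 at 0.28 and Sqle at -0.17. For the difference between times 2 became 4 with the replicate block, and 1 to 3 when libraries were left out. In TE at 14 h the 1 member called became 0 with the culture block, and 0 to 1 when libraries were left out; with the filter at a mean of 50 counts no member was left to test. The replicate block changed no call of a member in total RNA or TE, and the vehicle comparison between times had no block. In total RNA the numbers did not pair the cultures (r from -0.477 to 0.39).

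Values near 0 changed sign. With library totals alone Idi1 was at -0.001 and Cyp51 at -0.03 at 2 h and Srebf2 at -0.0008 at 14 h, and without the filter Srebf2 was at -0.01. Without the cultures numbered 3 Hmgcs1 was at 0.03 at 2 h. Leaving out libraries at 2 h gave -0.07 to 0.08 for Hmgcs1, -0.08 to 0.21 for Idi1, -0.13 to 0.19 for Cyp51, -0.18 to 0.12 for Insig1 and -0.06 to 0.02 for Srebf2, at 14 h -0.03 to 0.05 for Insig1 and -0.03 to 0.03 for Srebf2, and for the difference -0.03 to 0.29 for Sqle and -0.07 to 0.22 for Insig1. The cause was not tested. Low counts limit Ch25h and the members' total RNA values, although the total RNA libraries at 2 h held about as many counts in all as the footprint libraries.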

Other observations

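Fatty acid synthesis, which is driven mainly by the product of Srebf1, was mixed at 14 h. Of 10 genes, 5 were lower and 1 higher with IFN-β, with a median log2 fold change of -0.18. Over all genes 26.3% were called lower and 26.2% higher. Elovl6, a fatty acid elongase, was at -0.57 (adjusted p = 1.89e-05), Scd2, the desaturase of developing brain, at -0.29 (adjusted p = 0.00183) and Acly, which supplies acetyl-CoA from citrate, at -0.20 (adjusted p = 0.00879). Acss2, which makes acetyl-CoA from acetate and is a known SREBP target, was the gene called higher, at 0.93 (adjusted p = 2.92e-07), from 49.9 to 57.2 CPM with vehicle to 89.7 to 111 CPM with IFN-β. At 2 h edgeR called 0 of the 10, with 1 at an unadjusted p under 0.05 (Fads1) and 0 in DESeq2. In the block fit, which called 29.2% of all genes in either direction, 4 were lower.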
